A study of Mus musculus with 10 samples.

Results

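The genes described here are the 7 that encode cyclin-dependent kinase inhibitors in the mouse, *Cdkn1a*, *Cdkn1b*, *Cdkn1c*, *Cdkn2a*, *Cdkn2b*, *Cdkn2c* and *Cdkn2d*, together with *Cdkn3*, a CDK-associated phosphatase that shares their gene symbol stem. These 8 genes were taken by name from the 45232 entries of the expression table. RNA was sequenced from NIH3T3 cells, an immortalized mouse embryonic fibroblast line, after 60 h without serum, a treatment that brings fibroblasts to quiescence. All cells carried a CRISPR-Cas9 knockout of *Lin37*, a subunit of the MuvB core of the DREAM complex, in 1 of 2 clones, 411-27 with the lesion in exon 4 and 632-2 with the lesion in exon 6. Each clone carried a doxycycline-inducible episome that expressed either luciferase (KO cells) or wild-type *Lin37* (rescue cells), and cells with the episome were selected with hygromycin and sorted for GFP. The exon 4 clone gave 2 KO and 2 rescue libraries, and the exon 6 clone gave 3 of each, of which the third is a technical replicate of the second. Each clone is a single line without a parental wild-type line in the table, so that a difference between the clones cannot be told apart from a difference between any 2 single-cell clones.

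CDK inhibitors hold back cell cycle entry by binding cyclin-CDK complexes. The Cip/Kip proteins p21 (*Cdkn1a*), p27 (*Cdkn1b*) and p57 (*Cdkn1c*) bind CDK2 complexes and also cyclin D complexes, whereas the INK4 proteins p16 (*Cdkn2a*), p15 (*Cdkn2b*), p18 (*Cdkn2c*) and p19 (*Cdkn2d*) bind CDK4 and CDK6 alone. The DREAM complex represses cell cycle genes in quiescent cells through E2F sites and through cell cycle genes homology regions (CHRs), and *Cdkn3*, which dephosphorylates CDK2 and is itself expressed in proliferating cells, belongs to a different class from the inhibitors that arrest the cycle.

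The deposited values are reads scaled to gene length and library size (RPKM), which allow levels to be compared between genes. All levels below are rescaled RPKM, obtained by dividing a library by a factor between 0.324 and 2.70 that was set from the median of its ratios over 8523 expressed genes. Comparisons of groups use log2(rescaled RPKM + 0.5), so that a log2 difference of a gene near or under 0.5 RPKM understates its ratio. The technical replicates were averaged, giving 4 KO and 4 rescue replicates. Differences were tested with limma over all genes whose mean reached 0.1 RPKM, with Benjamini-Hochberg adjustment, and a gene was called at an adjusted p under 0.05. In the libraries of rescue cells *Lin37* was at 2.12 to 2.54 RPKM for exon 4 and at 4.41 to 5.11 RPKM for exon 6, and in all KO libraries it was at 0.268 to 0.417 RPKM. All 9 fibroblast markers were present in every library, and the highest level of any epithelial, leukocyte, endothelial, adipocyte or muscle marker was 0.471 RPKM (*Cdh1*). The libraries differed in background: in 4 of them, both exon 4 rescue libraries, the second exon 4 KO library and the second exon 6 rescue library, only 23.9% to 58.6% of 1020 olfactory receptor genes, which fibroblasts are not known to use, were listed at 0, compared with 88.4% to 96.6% in the other 6. The 95th percentile of the olfactory receptor genes was 0.146 to 0.340 RPKM in the former and at most 0.0297 RPKM in the latter, a range in which the low members lie.

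The 8 genes covered a wide range of levels in quiescent cells (see the plot of each gene by library). *Cdkn1a* was the most abundant, at a mean of 25.7 RPKM over the 8 replicates, rank 120 of 21501 protein-coding genes. *Cdkn2c* followed at 7.21 RPKM (rank 683) and *Cdkn1b* at 4.93 RPKM (rank 1159). These 3 were the members with RNA well above 1 RPKM in every library. *Cdkn2d* and *Cdkn3* were low, at 0.400 and 0.334 RPKM. *Cdkn1c*, *Cdkn2b* and *Cdkn2a* had means of 0.019, 0.006 and 0.0003 RPKM. In every library *Cdkn1a* stood above *Cdkn2c* and *Cdkn1b*, and these stood above all other members. In the exon 4 clone the ranges of *Cdkn2c* and *Cdkn1b* overlapped and their order differed between libraries. In the exon 6 clone every *Cdkn2c* value was above every *Cdkn1b* value. *Cdkn2d* and *Cdkn3* overlapped and their order differed between libraries. Levels of *Cdkn1c*, *Cdkn2b* and *Cdkn2a* also overlapped and give no order beyond their spread.

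**Figure D1:**
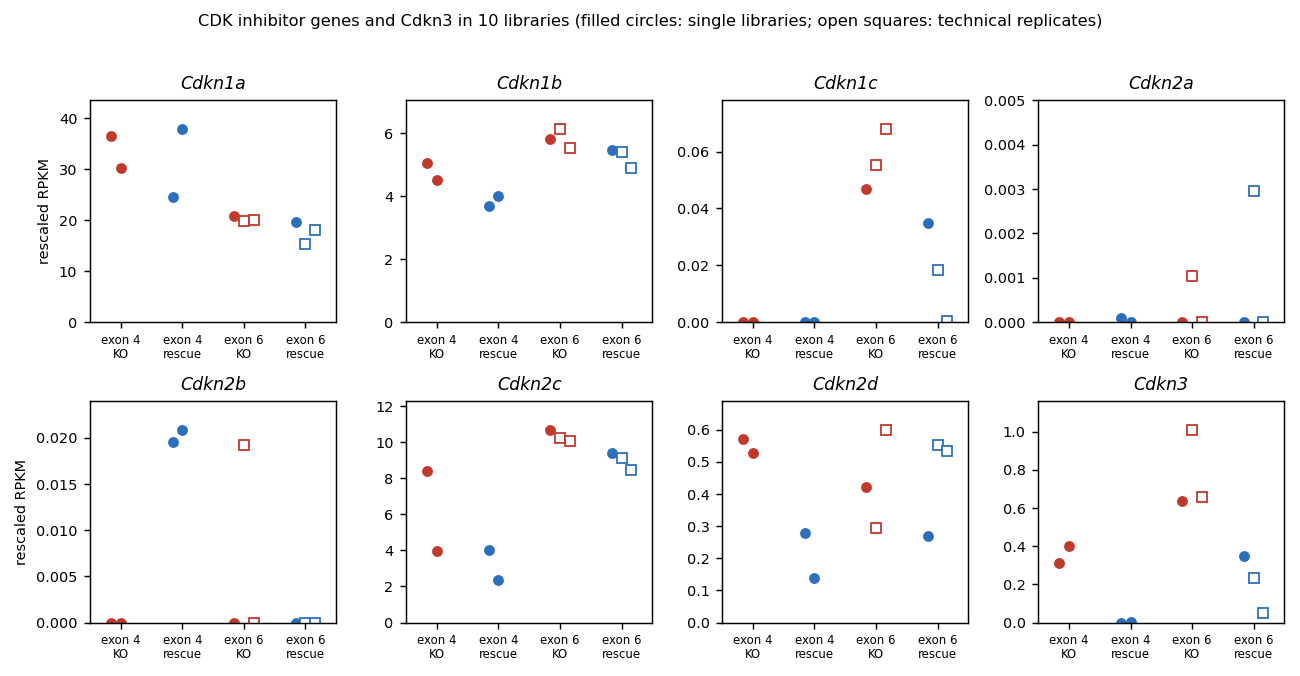
Rescaled RPKM (y axis, a separate scale in each panel, starting at 0) of the 8 genes in the 10 libraries by clone and genotype (x axis); filled circles are single libraries and open squares the technical replicates of the exon 6 clone, KO in red and rescue in blue. *Cdkn1a*, *Cdkn1b* and *Cdkn2c* were present in every library, *Cdkn3* was at or near 0 in the exon 4 rescue libraries, and *Cdkn2a* and *Cdkn2b* were each listed at 0 in 7 of 10 libraries.

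Of the 8 genes, *Cdkn3* alone was called between KO and rescue cells. Its level was 0.311 and 0.400 RPKM in the exon 4 KO libraries and 0 and 0.0019 RPKM in the exon 4 rescue libraries. For exon 6 the levels were 0.635, 1.01 and 0.659 RPKM in KO cells and 0.348, 0.232 and 0.0523 RPKM in rescue cells. Within each clone all KO libraries were above all rescue libraries, although the highest rescue library of the exon 6 clone lay above the lowest KO library of the exon 4 clone. With technical replicates averaged, KO stood above rescue without overlap for 11.4% of all genes tested in the exon 4 clone. In the exon 6 clone this held for 21.8%. Over both clones the mean was 0.545 ± 0.236 RPKM in KO cells and 0.123 ± 0.164 RPKM in rescue cells (SD, n = 4 each), a ratio of 4.43. The log2 difference was 0.75 (SE 0.12), with an adjusted p of 0.0151 by limma, and it was positive in all 4 pairs of KO and rescue samples that share a replicate number. *Cdkn3* was thus 1 of 5 members tested, in a fit where 1.69% of the 16866 genes tested were called in either direction and 1.61% were called higher and 0.083% lower in KO cells. KO and rescue replicates overlapped over both clones for all 8 genes, while among all genes tested 4.51% did not overlap, 3.11% with KO above and 1.4% with KO below rescue. Among 7 proliferation markers, 5 were also called higher in KO cells, and their part in the *Cdkn3* difference was not tested. In bulk RNA, more cells that express a gene and more RNA per cell cannot be told apart.

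The call was made at a low level of RNA. It was lost without the second exon 4 KO replicate (adjusted p = 0.053), the first or the second exon 6 KO replicate (0.051 and 0.098) or the second exon 6 rescue replicate (0.064), and also without the clone as a covariate (0.282) or without a minimum level (0.0999). With any 1 replicate left out the log2 difference was 0.68 to 0.84, and it stayed at 0.75 without the clone covariate or the minimum. In each clone alone it was 0.74 (SE 0.18, adjusted p = 0.205, limma) for exon 6 and 0.77 (SE 0.22, adjusted p = 0.942) for exon 4. Without the exon 6 rescue library with signal at olfactory receptor genes, a setting chosen after the data were seen, the exon 6 difference was 0.85 (adjusted p = 0.262). Both exon 4 rescue libraries also had signal at olfactory receptor genes, while *Cdkn3* was listed at 0 in one and at 0.0019 RPKM in the other. The second exon 4 KO library had it too, with *Cdkn3* at 0.400 RPKM and a 95th percentile of those genes of 0.238 RPKM. In the second exon 6 rescue library *Cdkn3* was at 0.232 RPKM and that percentile at 0.226 RPKM. *Cdkn3* stood above the percentile in 8 of 10 libraries.

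*Cdkn3* lies on chromosome 14 at 46760541-46771669 of the plus strand (GRCm38), and no other annotated gene of the table overlaps it. *Cnih1*, its neighbour 3898 bp away, was at a mean of 5.54 RPKM in KO cells and 5.21 RPKM in rescue cells. The promoter windows were searched on both strands for the letters of a CHR (TTTGAA or TTCGAA) and of an E2F site (TTCCCGC or TTCGCGC or TTGCCGC or TTGGCGC), since these are the elements through which DREAM is known to bind. The windows, from 250 bases before to 50 bases after a RefSeq start site on GRCm38.p6, are shown for *Cdkn3*, for *Cdkn2c* and for *Lockd*, the noncoding RNA downstream of *Cdkn1b*, because these carry a match next to the genes that the comparisons turn on. The window of *Cdkn1b* is shown beside them as one without a match. Capitals mark the match, and a match on the opposite strand reads as its reverse complement.
Cdkn3, chr14:46760291-46760590, plus strand: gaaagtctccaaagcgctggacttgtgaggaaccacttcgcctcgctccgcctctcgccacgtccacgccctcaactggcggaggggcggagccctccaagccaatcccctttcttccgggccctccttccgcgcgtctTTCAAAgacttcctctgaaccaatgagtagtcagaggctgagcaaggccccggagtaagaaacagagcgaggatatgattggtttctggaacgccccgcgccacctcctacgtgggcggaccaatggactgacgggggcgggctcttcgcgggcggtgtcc
Cdkn2c, chr4:109666707-109667006, minus strand: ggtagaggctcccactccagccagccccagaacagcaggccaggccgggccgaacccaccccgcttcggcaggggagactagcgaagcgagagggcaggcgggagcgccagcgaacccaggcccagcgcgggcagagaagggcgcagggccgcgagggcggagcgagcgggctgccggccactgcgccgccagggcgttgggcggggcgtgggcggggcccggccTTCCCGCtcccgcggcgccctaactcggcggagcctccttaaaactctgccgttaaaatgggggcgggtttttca
Cdkn1b, chr6:134920151-134920450, plus strand: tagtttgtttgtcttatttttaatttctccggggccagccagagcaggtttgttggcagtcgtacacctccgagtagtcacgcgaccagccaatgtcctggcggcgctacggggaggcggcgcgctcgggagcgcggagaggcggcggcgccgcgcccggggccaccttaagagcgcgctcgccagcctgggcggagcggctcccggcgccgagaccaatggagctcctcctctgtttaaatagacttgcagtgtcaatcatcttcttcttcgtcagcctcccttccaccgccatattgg
Lockd, chr6:134928842-134929141, plus strand: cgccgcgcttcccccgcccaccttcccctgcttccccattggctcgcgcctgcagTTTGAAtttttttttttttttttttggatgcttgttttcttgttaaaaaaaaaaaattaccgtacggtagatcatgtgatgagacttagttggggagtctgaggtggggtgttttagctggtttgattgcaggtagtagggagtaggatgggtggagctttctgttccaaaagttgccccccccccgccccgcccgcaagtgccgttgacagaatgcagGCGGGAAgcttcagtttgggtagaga

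The *Cdkn3* window holds a CHR match on the minus strand that begins 111 bases before the start site. The *Cdkn2c* window shown holds an E2F match 25 bases before the first of its 2 starts. The window of its other start (chr4:109665323-109665622), which is not shown, holds no match. The *Lockd* window holds both kinds, a CHR match 195 bases before and an E2F match on the minus strand 24 bases after the start. Of the other members, *Cdkn2b* has a CHR match 161 bases before its start and *Cdkn2a* an E2F match 98 bases before the first of its 2 starts. The windows of *Cdkn1a*, *Cdkn1b* and *Cdkn2d* hold neither, and *Cdkn1c* had no window in the table, so that 7 of 8 genes were searched. CHR letters occur in 19.2% of all 32851 windows, E2F letters in 9.57% and both in 1.16%. A match is a description of the letters and not a measured binding site.

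*Cdkn1a*, the best known p53 target among the inhibitors, was high in both genotypes. It was at 36.5 and 30.1 RPKM in exon 4 KO cells and at 24.5 and 37.8 RPKM in exon 4 rescue cells, so that the rescue libraries spanned the KO libraries. For exon 6 the values were 20.7, 19.8 and 20.1 RPKM in KO cells and 19.7, 15.3 and 17.997 RPKM in rescue cells, with all KO libraries slightly higher. With technical replicates averaged, 21.8% of all genes tested in this clone had KO above rescue without overlap. The log2 difference over both clones was 0.14 (SE 0.15; 95% interval -0.21 to 0.49; adjusted p = 0.849, limma), and 1 of 4 pairs had the opposite sign. None of 12 tested genes out of 13 further p53 targets was called, and the largest difference was that of the antiproliferative gene *Btg2* at 0.50 (adjusted p = 0.391). About 9.78% of the 31-base stretches of *Cdkn1a* transcripts also occur in transcripts of other genes, so that part of its reads may be shared.

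*Cdkn1b* encodes p27, whose amount is known to be controlled largely through protein degradation. Its RNA was at 5.04 and 4.50 RPKM in exon 4 KO cells and at 3.69 and 4.003 RPKM in exon 4 rescue cells. Exon 6 libraries had 5.81, 6.12 and 5.53 RPKM in KO cells and 5.46, 5.41 and 4.88 RPKM in rescue cells. Averaged over technical replicates, KO and rescue did not overlap within either clone, which among all genes held for 11.4% (KO above rescue, exon 4) and 21.8% (exon 6), and they overlapped over both clones. The log2 difference was 0.20 (SE 0.09; 95% interval -0.0035 to 0.40; adjusted p = 0.576). In all 4 pairs the KO value was the higher one for *Cdkn1b*, *Cdkn2c* and *Cdkn3*, and the same held for 8.96% of the genes tested.

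Among 8 genes for the turnover of p27, 1 was called: *Cks1b*, the cofactor with which the SCF-Skp2 ubiquitin ligase recognizes p27, was at 2.98 ± 0.699 RPKM in KO cells and at 0.649 ± 0.113 RPKM in rescue cells (SD, n = 4), a log2 difference of 1.58 (adjusted p = 0.001). The other 7 were not called, with *Rbx1*, the RING subunit, next in size at -0.33 (adjusted p = 0.608).

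*Lockd*, a long noncoding RNA that starts 3579 bp beyond the end of *Cdkn1b* on the same strand of chromosome 6, was at 1.75, 1.76 and 2.24 RPKM in exon 6 KO cells and at 0.402, 0.511 and 0.257 RPKM in exon 6 rescue cells. Exon 4 libraries had 0.277 and 0.502 RPKM in KO cells and 0.282 and 0.291 RPKM in rescue cells. The exon 6 KO libraries stood apart from all others, and in the exon 4 clone the genotypes overlapped. *Lockd* stood above the 95th percentile of the olfactory receptor genes in 9 of 10 libraries. The exception was the second exon 4 rescue library, with 0.291 RPKM against a percentile of 0.340 RPKM. Within the exon 6 clone *Lockd* was called (log2 difference 1.41, SE 0.11, adjusted p = 0.0118, limma), as were 1.3% of 15301 genes (1.24% higher and 0.0654% lower in KO cells), with a ratio of 4.78 between KO and rescue. In the exon 4 clone the log2 difference was 0.17 (SE 0.23, adjusted p = 0.988) and over both clones 0.79 (adjusted p = 0.259). The difference between the clones in the KO effect was 1.24 (SE 0.22, 95% interval 0.73 to 1.76), which did not pass the adjustment over 16866 genes (adjusted p = 0.989). This difference therefore cannot be said to be particular to a clone. The exon 6 call was lost when any single replicate was left out (adjusted p 0.0595 to 0.256) and held without the rescue library with olfactory receptor signal (1.52, adjusted p = 0.0253). *Cdkn1b* itself differed by 0.12 (adjusted p = 0.719) in the exon 6 clone. Some 8.95% of the 31-base stretches of *Lockd* occur in transcripts of other genes.

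**Figure D2:**
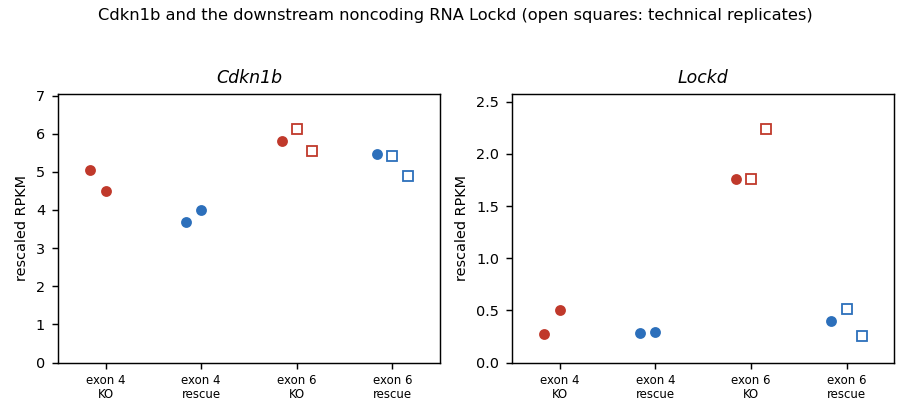
Rescaled RPKM (y axes, from 0) of *Cdkn1b* (left) and *Lockd* (right) by clone and genotype (x axes), KO in red and rescue in blue; filled circles are single libraries and open squares technical replicates. *Lockd* was at 1.75 to 2.24 RPKM in exon 6 KO cells and at or below 0.511 RPKM in all other libraries, while *Cdkn1b* stayed between 3.69 and 6.12 RPKM.

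*Cdkn1c* encodes p57 and is an imprinted gene. It was listed at 0 in all 4 exon 4 libraries. Exon 6 libraries had 0.0470, 0.0553 and 0.0679 RPKM in KO cells and 0.0348, 0.0183 and 0.0004 RPKM in rescue cells. All KO values of this clone were above all rescue values, at levels well below the minimum of 0.1 RPKM for a test. With technical replicates averaged, KO stood above rescue without overlap for 21.8% of all genes tested in this clone. *Cdkn1c* stood above the 95th percentile of the olfactory receptor genes in 5 of 10 libraries. Of its 31-base stretches, 27.2% are shared with transcripts of other genes, most with *Gm44732*. In the same imprinted region, *Slc22a18* was at 0.0649 to 0.446 RPKM, *Phlda2* was listed at 0 in 8 libraries and *Kcnq1* did not exceed 0.0278 RPKM.

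Whether RNA of *Cdkn2a* and *Cdkn2b* is detected in this line was read from each library. The genes lie next to each other on the minus strand of chromosome 4, at 89274471-89294653 and 89306299-89311039, with 11646 bp between them. NIH3T3 cells are commonly described as having lost the locus that encodes p16 and ARF. *Cdkn2a* was listed at 0 in 7 of 10 libraries, and the other values were 0.0001 RPKM in the first exon 4 rescue library, 0.0010 RPKM in the second exon 6 KO library and 0.0030 RPKM in the second exon 6 rescue library. The technical replicates of both exon 6 samples were listed at 0. *Cdkn2b* was also listed at 0 in 7 of 10 libraries, with values of 0.0196 and 0.0209 RPKM in the exon 4 rescue libraries and 0.0192 RPKM in the second exon 6 KO library, whose technical replicate was at 0. For both genes all values were at or below 0.0209 RPKM and each exceeded the 95th percentile of the olfactory receptor genes in a single library, the second exon 6 KO library, where 95% of those genes were listed at 0. None of the 31-base stretches of *Cdkn2a* or *Cdkn2b* is shared with transcripts of other genes. Neither reached the minimum for a test, and RNA levels do not show whether the DNA is present.

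Other annotated genes near this pair ranged from undetected to abundant. *Gm12606*, a noncoding RNA 1068 bp from *Cdkn2a*, reached 0.160 RPKM and *Gm12609* reached 0.098 RPKM, both in the second exon 4 rescue library, where the 95th percentile of the olfactory receptor genes was 0.340 RPKM. *Gm12610*, 110809 bp from *Cdkn2b*, was at 0 to 0.434 RPKM. *Gm26490*, a small nucleolar RNA gene 91351 bp from *Cdkn2a*, was present in all libraries at 0.436 to 1.28 RPKM. *Mtap*, the methylthioadenosine phosphorylase gene 93.4 kb from *Cdkn2a*, was at 20.9 to 30.3 RPKM in all libraries, whereas *Dmrta1*, 368.4 kb from *Cdkn2b* on the other side, was at 0 to 0.0308 RPKM. *Mtap* and *Dmrta1* were chosen after their values were seen.

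**Figure D3:**
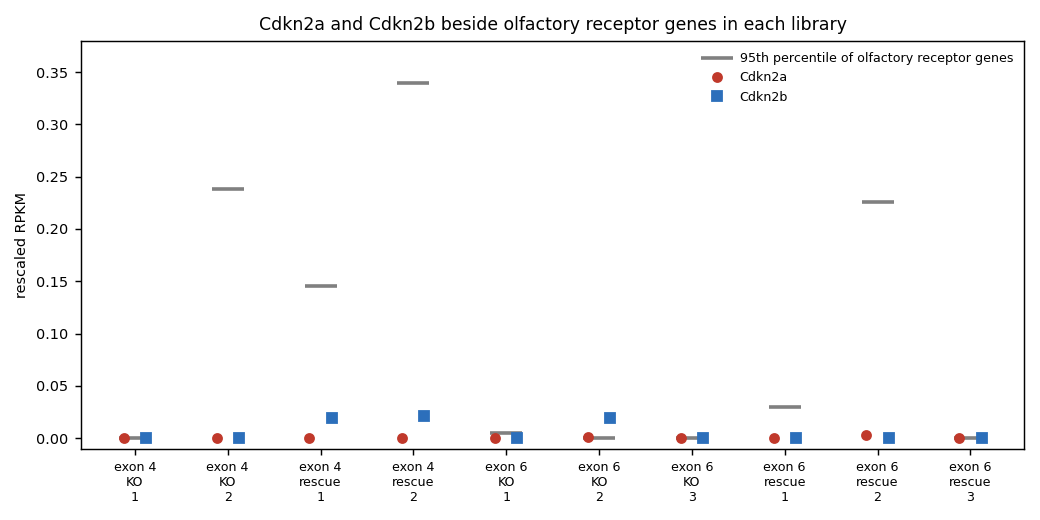
Rescaled RPKM (y axis) of *Cdkn2a* (red circles) and *Cdkn2b* (blue squares) in each of the 10 libraries (x axis), with the 95th percentile of 1020 olfactory receptor genes in the same library as a grey bar. Both genes lie at or below 0.0209 RPKM, under the bar in the 4 libraries where it is at 0.146 RPKM or higher.

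*Cdkn2c* encodes p18 and was the INK4 gene with the highest RNA level. Exon 4 libraries had 8.38 and 3.95 RPKM in KO cells and 4.004 and 2.38 RPKM in rescue cells. Exon 6 libraries had 10.7, 10.2 and 10.04 RPKM in KO cells and 9.38, 9.11 and 8.47 RPKM in rescue cells. The exon 4 values overlapped between genotypes, with the first KO library far above the second, whereas the exon 6 KO values were all above the rescue values. With technical replicates averaged, the latter held for 21.8% of all genes tested in the exon 6 clone. The ratio of the means was 1.93 for exon 4 and 1.146 for exon 6. The log2 difference over both clones was 0.50 (SE 0.24; 95% interval -0.06 to 1.05; adjusted p = 0.623). The KO effects of the clones differed by -0.62 (exon 6 minus exon 4; 95% interval -1.72 to 0.49; adjusted p = 0.997).

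*Cdkn2d*, the gene of p19, was at 0.573 and 0.528 RPKM in exon 4 KO cells and at 0.277 and 0.138 RPKM in exon 4 rescue cells, without overlap. The value of 0.138 RPKM lies under the 95th percentile of the olfactory receptor genes in its library, 0.340 RPKM. In the other libraries *Cdkn2d* stood above that percentile. Among all genes tested in that clone, 11.4% had KO above rescue without overlap. Exon 6 libraries had 0.421, 0.294 and 0.601 RPKM in KO cells and 0.268, 0.554 and 0.536 RPKM in rescue cells, where the groups overlapped and the technical replicates of KO differed by more than the genotypes. The log2 difference over both clones was 0.32 (SE 0.15; 95% interval -0.03 to 0.67; adjusted p = 0.613). *Kri1*, 441 bp away, was at a mean of 1.21 RPKM in KO cells and 1.152 RPKM in rescue cells.

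**Figure D4:**
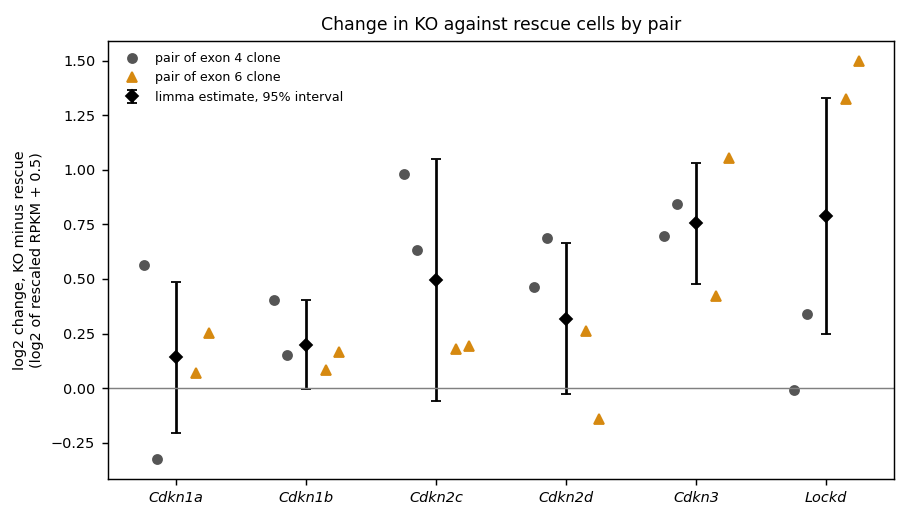
Log2 difference of KO minus rescue, on log2(rescaled RPKM + 0.5) (y axis), for the 5 tested members and *Lockd* (x axis), in each pair of the exon 4 clone (grey circles) and the exon 6 clone (orange triangles), with the limma estimate over both clones and its 95% interval (black). *Cdkn1b*, *Cdkn2c* and *Cdkn3* are above 0 in all 4 pairs, and the interval excludes 0 for *Cdkn3* and *Lockd*, of which *Cdkn3* alone passed the adjustment over all genes.

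The other nearest genes on either side of the members are given by their mean levels in KO and rescue cells, without a test. Beside *Cdkn1a*, *Trp53cor1*, a noncoding RNA, was at 0.859 and 0.563 RPKM and the pseudogene *Rpl35a-ps3* at 13.5 and 11.7 RPKM, while *Rab44* did not exceed 0.0466 RPKM. Beside *Cdkn1b*, *Gpr19* was at 0.452 and 0.305 RPKM and *2810454H06Rik* at 0.109 and 0.129 RPKM, while *Apold1* did not exceed 0.0551 RPKM. The noncoding entries *Gm27599* near *Cdkn1a* and *Gm27901* near *Cdkn1c* were listed at 0 in all libraries. Beside *Cdkn2c*, *Faf1* was at 2.84 and 2.75 RPKM, *9630013D21Rik* at 0.514 and 0.312 RPKM, *Gm12811* at 0.0801 and 0.218 RPKM and *Gm12808* at 0.0743 and 0.0973 RPKM. Beside *Cdkn2d*, *Slc44a2* was at 2.70 and 2.84 RPKM and *Atg4d* at 0.925 and 0.715 RPKM, while *Ap1m2* did not exceed 0.00948 RPKM. Near *Cdkn3*, *Gmfb* was at 1.62 and 1.52 RPKM, and *E130120K24Rik* and *Rubie* did not exceed 0.012 and 0.00739 RPKM.

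No member was called in either clone alone, where 1.3% of genes were called in the exon 6 clone and none of 18751 in the exon 4 clone by limma (426 genes were higher and 342 lower at an unadjusted p under 0.05 in the latter). In a single fit over both clones, 101 genes were called higher and 4 lower in the exon 4 clone. No member was called for a difference between the clones in its KO effect, nor was any of the 16866 genes (434 higher and 251 lower at an unadjusted p under 0.05). In simulated data this comparison recovered 18 of 100 genes changed by 1 on the log2 scale. The lack of a call therefore does not show that the KO effects were equal.

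The kinases and cyclins that the inhibitors bind were compared in the same fit. Of 10 genes, 2 were called, both higher in KO cells: *Ccna2*, the cyclin of S phase and G2, was at 1.51 ± 0.379 RPKM in KO cells and 0.164 ± 0.0891 RPKM in rescue cells (log2 difference 1.58, adjusted p = 0.0015), and *Cdk1*, the mitotic kinase, at 1.19 ± 0.271 and 0.103 ± 0.0409 RPKM (1.47, adjusted p = 0.0004; SD, n = 4). The median of the list was -0.01 and that of all genes tested -0.03. None of the 3 pocket proteins was called, the largest difference being 0.47 for *Rbl1*, the gene of p107 (adjusted p = 0.148). None of 13 transcriptional regulators of the inhibitors was called, the largest difference being -0.23 for *Foxo3* (adjusted p = 0.623). Of 7 proliferation markers 5 were called, all higher in KO cells, with *Top2a*, a topoisomerase, at 5.67 ± 1.03 against 1.09 ± 0.518 RPKM (2.01, adjusted p = 0.0004) and *Mcm5*, a subunit of the replicative helicase, at 2.66 ± 1.01 against 0.274 ± 0.158 RPKM (1.99, adjusted p = 0.0004).

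More members were called between the clones than between KO and rescue cells. With the genotype as a covariate, 4 of 5 tested members were called between the exon 6 and the exon 4 clone, where 13.6% of all genes were called, 6.84% higher and 6.71% lower in the exon 6 clone. *Cdkn2c* was higher in the exon 6 clone, at 9.75 ± 0.834 against 4.68 ± 2.58 RPKM (SD, n = 4; log2 difference 1.10, SE 0.24, adjusted p = 0.022). *Cdkn1b* was at 5.56 ± 0.325 against 4.31 ± 0.589 RPKM (0.34, adjusted p = 0.039) and *Cdkn3* at 0.490 ± 0.306 against 0.178 ± 0.208 RPKM (0.54, adjusted p = 0.023). *Cdkn1a* was lower in the exon 6 clone, at 19.3 ± 1.79 against 32.2 ± 6.15 RPKM (-0.71, SE 0.15, adjusted p = 0.019), whereas on the values as deposited it differed by 0.26, against an all-gene median of 0.51. *Cdkn2d* was not called (0.09, adjusted p = 0.729). The 4 replicates of one clone did not overlap with those of the other for *Cdkn1a*, *Cdkn1b* and *Cdkn2c*, as for 20.5% of all genes tested, nor for *Cdkn1c*, which was not tested.

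Over all genes, 1154 were called higher and 1132 lower in the exon 6 clone on the rescaled values, and 2484 higher and 261 lower on the values as deposited. The members called fell from 4 to 0 without either exon 6 KO replicate or without a minimum level, to 1 without either exon 6 rescue replicate, and to 2 without the second exon 4 KO replicate. Of the 8 fits with 1 replicate left out, the call held in 1 for *Cdkn1b* and in 3 for *Cdkn2c*. It held in 5 of 8 for *Cdkn1a* and likewise for *Cdkn3*. Signal at olfactory receptor genes moved with the clone as well, since 3 of the 4 libraries that had it were of the exon 4 clone. It also moved with the genotype, since 3 of the 4 were of rescue cells. The same 4 libraries had the smallest rescaling factors (0.324 to 0.722), so that rescaling raised their values most. The part of this signal in the differences between clones or between KO and rescue cells was not tested.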

How the data were processed

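RNA was extracted from serum-starved NIH3T3 cells, depleted of ribosomal RNA, and sequenced. The authors trimmed reads with cutadapt, mapped them to mm10 with segemehl, allowing split reads, and counted them with rnacounter against a GENCODE annotation; the submitters' processing notes also name Picard 1.89. The deposited values are RPKM per gene, in 1 table of 45232 entries and 10 libraries, each of which has its own column. The study tested counts with edgeR, which RPKM values do not allow. Between 39.1% and 58.4% of low values were whole multiples of 1 read (tolerance 0.1 read, up to 10 reads), so whole reads were not recovered, the depth per library is unknown, and no counting interval is given. The depth therefore limits the precision of low genes to an unknown extent.

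The RPKM values were divided by median-of-ratios factors (8523 genes of at least 1 RPKM). Technical replicates were averaged. Over genes of at least 1 RPKM, the technical libraries of the exon 6 clone differed by a median absolute log2 of 0.185 (KO) and 0.234 (rescue). After averaging, the biological replicates of that clone differed by 0.114 (KO) and 0.170 (rescue). The technical libraries were thus no more alike than the biological replicates. limma 3.58.1 in R 4.3.3 (trended variances) was fitted to log2(rescaled RPKM + 0.5), for genes whose mean reached 0.1 RPKM, with the clone as covariate for KO against rescue. This fit was tested on simulated data with independent normal noise, where the changed genes were drawn from those of at least 1 RPKM. In the comparison over both clones, on 16400 genes, it recovered 79 of 100 genes changed by 1 on the log2 scale. Of those changed by 2 it recovered 98 of 100, and there were 7 false calls. In the exon 6 clone alone it recovered 2 and 67 of 100. For the difference between the clones in the KO effect it recovered 18 and 65 of 100. These rates were not measured for genes under 1 RPKM, among them *Cdkn3*, *Cdkn2d* and *Lockd*. The alternatives were pseudocounts of 0.1 and 1, no minimum and a minimum of 1 RPKM, values as deposited, technical libraries kept apart, a replicate block, a fit lacking the clone term, quantile normalization, untrended variances, 1 fit over both clones, and leaving out each replicate.

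Clone names and groups come from the sample labels, and the exon of each clone from the study's methods. The labels do not say whether replicates of a group were separate cultures or whether equal replicate numbers of KO and rescue were grown together. Deviations of equally numbered KO and rescue samples from their group means correlated across genes (0.477 for exon 4 and 0.360 for exon 6), and the numbers were taken to pair the samples. In the exon 4 clone, fewer olfactory receptor genes were at 0 in the second replicate than in the first. The shares were 37.2% against 94.0% in KO and 23.9% against 58.6% in rescue cells. Its part in the correlation was not tested, so that the pairing is not established. The main fit did not use it. p-values measure the spread between these samples.

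The members, gene lists and tests were chosen with earlier results of these data known. Genes were named by rule: all members, *Lin37*, *Lockd*, the 2 nearest annotated genes on either side of a member, from each list up to 2 called genes per direction, largest change first, or else the gene that differed most, and for members of at least 1 RPKM the 2 genes with the most similar profile. The list genes named for a difference between the clones are all those called there. Coordinates are from GENCODE on GRCm38 and promoter sequences from RefSeq on GRCm38.p6. The list of olfactory receptor genes was added after the data were seen.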

Additional observations from a re-analysis of the deposited data

Results flagged for a closer look

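In groups of 4 replicates, the highest or lowest value of each member was compared with the others by Dixon's ratio, the gap to the nearest value divided by the range. Of 16 groups tested (8 genes in KO and in rescue cells), 3 exceeded the 95% critical value. That value assumes normally distributed data, for which chance flags about 1 in 20 groups. Where all replicates but 1 are at 0, the ratio is 1 whatever the size of the remaining value. The number of flags therefore cannot be set against that rate. The highest *Cdkn2a* KO replicate, at 0.0005 RPKM with the other replicates at 0, had a ratio of 1. The highest *Cdkn2a* rescue replicate, at 0.0015 RPKM, had a ratio of 0.934. The highest *Cdkn2b* KO replicate, at 0.0096 RPKM with the other replicates at 0, had a ratio of 1. All 3 are replicates of the second exon 6 sample, in which 1 of the technical libraries had the value and the other was listed at 0.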

How the results depend on the processing

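Among the recomputed log2 differences of members, 333 kept their direction and their side of the threshold, 29 lost a call, 6 gained one and 17 reversed. Called genes between KO and rescue over both clones were 285, and became 177 without a minimum, 103 with a minimum of 1 RPKM, 888 as deposited and 178 to 280 with a replicate left out; members called were 1, and became 0 without a minimum, with a minimum of 1 RPKM (where *Cdkn3* was not tested) or without the clone covariate, 2 as deposited (*Cdkn3* and *Cdkn2c*, with an all-gene median of 0.64) and 0 to 1 with a replicate left out. With the replicate block, which uses the pairing, 276 genes were higher and 27 lower, the adjusted p of *Cdkn3* was 0.035, and no call of a member changed. The exon 6 clone gave 199 genes, and 0 without a minimum, 75 with a minimum of 1 RPKM, 10087 as deposited and 0 to 72 with a replicate left out; members were 0, and 5 as deposited, with an all-gene median of 0.69. The exon 4 clone gave 0 genes, and 1 with a minimum of 1 RPKM, 1 with the block and 105 in 1 fit over both clones. The interaction gave 0 genes, and 7 as deposited. The clone comparison gave 2286 genes and 4 members, and 1039 and 0 without a minimum, 2 members as deposited, and 1011 to 3091 genes and 0 to 4 members with a replicate left out.

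For KO against rescue, *Cdkn2d* in the exon 6 clone became -0.019 with technical replicates separate and -0.16 to 0.28 with a replicate left out, where *Cdkn1a* in the exon 4 clone became -0.19 to 0.43 and *Lockd* in the exon 4 clone -0.017 to 0.35. For the interaction, *Cdkn1a* became -0.032 as deposited and -0.27 to 0.35 with a replicate left out, and *Cdkn3* became 0.044 with a pseudocount of 1, 0.59 as deposited, 0.075 with technical replicates separate and -0.23 to 0.17 with a replicate left out. Between the clones, *Cdkn1a* became 0.26 as deposited and *Cdkn2d* -0.051 to 0.15 with a replicate left out. The cause was not tested. Depth is unknown, which limits what can be said of genes under the minimum.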

Other observations

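Between the clones, genes from the lists of regulators and partners also differed. In the exon 6 clone *Foxo3*, a forkhead factor known to activate *Cdkn1b*, was at 5.66 ± 0.777 against 9.15 ± 1.32 RPKM in the exon 4 clone (SD, n = 4; log2 difference -0.64, adjusted p = 0.0078, limma), and *Smad3*, a TGF-beta effector, at 2.37 ± 0.126 against 3.43 ± 0.342 RPKM (-0.45, adjusted p = 0.019). *Rb1* was at 0.493 ± 0.0719 against 1.12 ± 0.23 RPKM (-0.70, adjusted p = 0.0082) and *Cdk6*, a target of the INK4 proteins, at 1.01 ± 0.157 against 1.97 ± 0.667 RPKM (-0.67, adjusted p = 0.046). The p53 targets *Btg2* and *Trp53inp1* were also lower in the exon 6 clone (-0.71 and -0.80), and the helicase gene *Mcm2* was higher (0.57). Of the fibroblast markers, *Col1a1* (1.20) and *Col1a2* (0.87) were higher and *Pdgfra* (-0.66) and *Pdgfrb* (-0.89) lower in the exon 6 clone, as was the epithelial marker *Cdh1* (-0.59). On the values as deposited the differences were 0.31 for *Foxo3*, 0.34 for *Smad3*, -0.18 for *Rb1*, 0.10 for *Cdk6*, 0.13 for *Btg2*, 0.02 for *Trp53inp1*, 1.35 for *Mcm2*, 2.11 for *Col1a1*, 1.82 for *Col1a2*, 0.30 for *Pdgfra*, -0.05 for *Pdgfrb* and -0.44 for *Cdh1*, with a median of 0.51 over all genes. The direction of *Foxo3*, *Smad3*, *Cdk6*, *Btg2*, *Trp53inp1* and *Pdgfra* therefore depends on the scaling.

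The genes whose centred log2 profile over the 8 replicates was most like that of a member, among 7549 other genes whose mean reached 1 RPKM, were *Ahnak2* and *Dglucy* for *Cdkn1a* (root-mean-square difference 0.076 and 0.112 on the log2 scale), *Gm5526* and *Tnk2* for *Cdkn1b* (0.052 and 0.074), and *Mvd* and *Gm11884* for *Cdkn2c* (0.123 and 0.170). These replicates share clone and library preparation, and no test was made.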
